A study of Homo sapiens with 8 samples.

Results

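Cyclin-dependent kinase (CDK) inhibitors are the proteins that hold the kinases of the cell cycle in check. The genes described here are CDKN1A, CDKN1B, CDKN1C, CDKN2A, CDKN2B, CDKN2C, CDKN2D and CDKN3, 8 genes chosen by name. The 11 probes whose RefSeq accession belongs to them were found among 42405 non-control probes, and all 11 were among the 35514 probes that were tested. CDKN1B, CDKN2A and CDKN3 had 2 probes each and the other genes had 1, and the brightest probe over the arrays stood for a gene.

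LNCaP is an androgen-responsive line of human prostate cancer cells, first grown from a lymph node metastasis. The cells received 30 nM of an siRNA against GATA2 (siGATA2) or of a scrambled negative control siRNA (siControl) and were kept in RPMI-1640 with fetal bovine serum. Total RNA was taken 72 h after transfection and hybridized to 8 one-colour Agilent arrays, 4 a group. The methods name a single siRNA product against GATA2, and no untransfected cells were among the arrays. Nothing in the labels says whether the arrays of a group came from separate cultures, so the errors below measure the spread between arrays, which may be technical.

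The inhibitors fall into families that act at different points. The CIP/KIP proteins p21 (CDKN1A), p27 (CDKN1B) and p57 (CDKN1C) bind CDK2 and other kinases together with their cyclins, whereas the INK4 proteins p16 (CDKN2A), p15 (CDKN2B), p18 (CDKN2C) and p19 (CDKN2D) bind CDK4 and CDK6 and keep the retinoblastoma protein active. CDKN3 encodes KAP, a phosphatase that removes the activating phosphate of CDK2. In many cell types the transcripts of CDKN3 and CDKN2C are themselves made periodically and are most abundant in cycling cells, so the name inhibitor does not by itself say in which state a gene is expressed.

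Values are the log2 of the processed signal after quantile normalization, in which a step of 1 is a 2-fold change. A fold change is the mean of the arrays labelled siGATA2 minus the mean of those labelled siControl. A gene is said to have risen or fallen where the adjusted p from limma was under 0.05 over all probes tested. GATA2 itself, by its brightest probe, was not lower on the arrays labelled siGATA2. Its signal was 12.61, 12.54, 11.57 and 11.40 on siGATA2 arrays 1 to 4 and 11.74, 11.28, 11.10 and 11.29 on siControl arrays 1 to 4. The groups overlapped, and the siGATA2 mean was higher by 0.68 (adjusted p = 0.151, standard error 0.311). With the title letters, explained below, as a block, GATA2 was called higher on the siGATA2 arrays (0.47, adjusted p = 0.0257). All directions below therefore rest on the labels. The 11 prostate luminal markers measured here were above background on all 8 arrays. Of 10 mesenchymal and blood markers, 3 (COL1A1, PTPRC and HBB) were above background on all 8 arrays and 3 (COL3A1, LUM and PECAM1) on none. The 8 arrays lay on 1 slide. Between 24072 and 36735 probes were above background on an array, with the fewest on siControl arrays 3 and 1, and no spot was saturated. The title letters of the samples (A and B for siGATA2 arrays 1 and 2, B for siControl array 1, D to G for the others) have no stated meaning, but several of the inhibitors split along them, and values within each set of letters are given for their brightest probes.

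One inhibitor rose on the arrays labelled siGATA2. CDKN1C, which encodes p57, was 3.56-fold higher, and its groups lay far apart. CDKN3, CDKN2C and CDKN2A fell, by 1.61, 0.83 and 0.47 on the log2 scale. CDKN1A, CDKN1B, CDKN2B and CDKN2D did not pass the test. Of the 8 genes, 3 were lower and 1 was higher, while over all probes 14.5% were called lower and 12.5% higher. At a fold of at least 2, 1 gene was lower and 1 was higher, against 7.3% and 4.71% of all probes. The same 3 lower genes and 1 higher gene had groups that did not overlap, which was the case for 16.7% of all probes in the lower direction and 16.3% in the higher direction. These counts describe 8 genes and are not read as a property of the group. The median log2 fold change was 0.22 over the 8 genes and 0.084 over all probes tested.

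**Figure D1:**
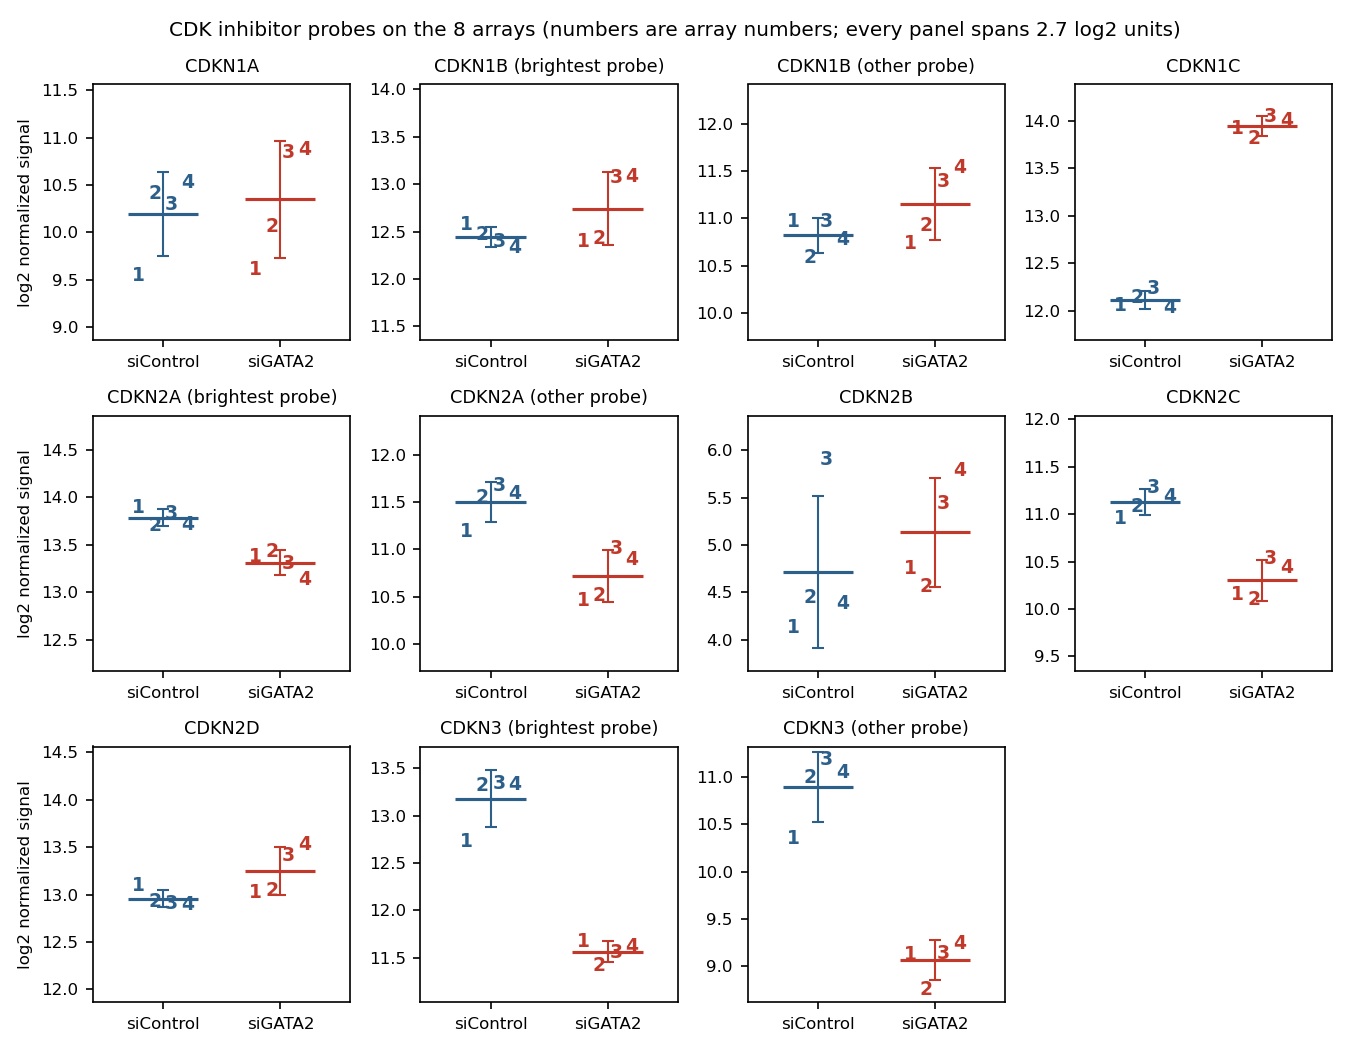
Log2 normalized signal of the 11 CDK inhibitor probes on the 4 siControl arrays (blue) and the 4 siGATA2 arrays (red), where each number is an array, the horizontal line the group mean and the bar its SD. CDKN1C stands apart upward and both CDKN3 probes downward, and siGATA2 arrays 1 and 2 lie below siGATA2 arrays 3 and 4 for every probe but the brightest of CDKN2A and of CDKN3.

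CDKN1C had the largest rise of the inhibitors. Its signal was 13.92, 13.81, 14.04 and 14.01 on siGATA2 arrays 1 to 4 and 12.05, 12.14, 12.23 and 12.03 on siControl arrays 1 to 4. Every siGATA2 array was above every siControl array, and neither group spread by more than a small part of the gap. Group means were 13.95 ± 0.103 (SD, n = 4) against 12.11 ± 0.0935 (SD, n = 4), which is a log2 fold change of 1.83 (standard error 0.105, 95% interval 1.59 to 2.08, adjusted p = 2.56e-05). Of all probes tested, 98.7% had a lower fold change. Before normalization the signal was 12659 to 19149 intensity units on the siGATA2 arrays and 2480 to 6142 on the siControl arrays. The gap was nearly the same within the title letters, with a log2 difference of 1.82 among A and B (2 arrays against 1) and 1.89 among D to G (2 against 3). In the rows of the slide it was 1.90 (3 siGATA2 arrays against 1 siControl array) and 1.87 (1 against 3).

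CDKN1C is transcribed from an imprinted domain in which the noncoding RNA KCNQ1OT1 runs from the other parental chromosome. KCNQ1OT1 was 10.85, 10.66, 9.24 and 9.30 on the siGATA2 arrays and 10.42, 8.46, 8.27 and 8.46 on the siControl arrays. Its groups overlapped, as siControl array 1 lay with siGATA2 arrays 1 and 2, and its group means differed by 1.11 (adjusted p = 0.206, standard error 0.585). With the title letters as a block the same gene gave 0.68 (adjusted p = 0.00502), and without siControl array 1 it gave 1.61 (adjusted p = 0.0349).

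CDKN1A, which encodes the p53-induced inhibitor p21, showed no rise that exceeded its spread. Its signal was 9.61, 10.06, 10.84 and 10.87 on siGATA2 arrays 1 to 4 and 9.55, 10.41, 10.30 and 10.53 on siControl arrays 1 to 4. The lowest array of each group carried the letters A or B, and siGATA2 arrays 3 and 4 were above all the others. The groups differed by 0.15 (95% interval -0.64 to 0.94, standard error 0.342, adjusted p = 0.772). Among the letters D to G the difference was 0.45 and among A and B it was 0.29, and a fit with the letters as a block gave 0.39 (adjusted p = 0.0342), which passed the test. In the slide rows the difference was -0.36 (3 siGATA2 arrays against 1 siControl array) and 0.79 (1 against 3), and CDKN1A was the only one of the 8 genes whose sign differed between the rows. The sign also turned without siGATA2 array 3 (-0.013), without siGATA2 array 4 (-0.024) and without siControl array 1 (-0.065).

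CDKN1B, which encodes p27, was 12.40, 12.42, 13.07 and 13.08 on siGATA2 arrays 1 to 4 and 12.57, 12.47, 12.40 and 12.33 on siControl arrays 1 to 4. The siGATA2 arrays formed a low and a high pair, and the siControl arrays fell around the low pair. The groups differed by 0.30 (95% interval -0.14 to 0.75, standard error 0.193, adjusted p = 0.291), and the other probe gave 0.33 (standard error 0.202, adjusted p = 0.272). The difference was -0.16 among the letters A and B and 0.68 among D to G, where the test on those 5 arrays alone gave an adjusted p of 0.00244. The brightest CDKN1B probe was printed on 10 spots of each array, whose log2 values had an SD of 0.0388 to 0.0986 within an array, a spread that does not measure the variation between arrays.

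**Figure D2:**
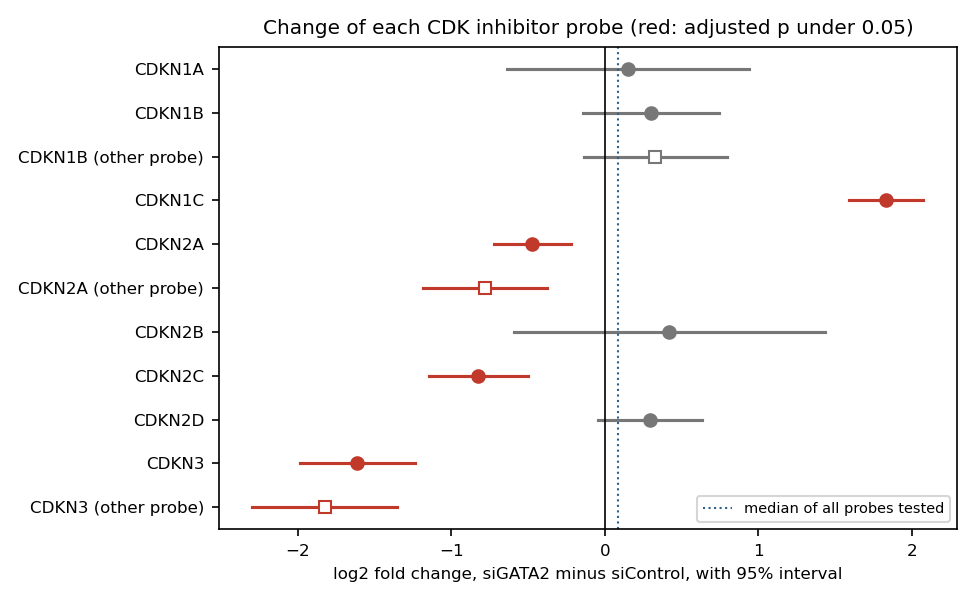
Log2 fold change (siGATA2 minus siControl, n = 4 arrays each) of the 11 CDK inhibitor probes with the 95% interval from limma, where filled circles are the brightest probe of a gene, open squares the other probe and red marks an adjusted p under 0.05. Probes of the same gene lay on the same side of 0, and the intervals of CDKN1A, CDKN1B, CDKN2B and CDKN2D include 0.

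Of the INK4 genes, 2 fell and 2 did not pass the test. CDKN2A, whose locus encodes p16 and, from another first exon, the p53 activator ARF, was 13.38, 13.43, 13.30 and 13.14 on siGATA2 arrays 1 to 4 and 13.89, 13.71, 13.83 and 13.71 on siControl arrays 1 to 4. The groups did not overlap. The difference was -0.47 on the brightest probe (adjusted p = 0.0143, standard error 0.109) and -0.78 on the other (adjusted p = 0.0122, standard error 0.174). On the other probe, siGATA2 arrays 1 and 2 (10.45 and 10.51) were below siGATA2 arrays 3 and 4 (11.01 and 10.90), and the siControl arrays had 11.19 to 11.67. The difference of the brightest probe was -0.49 among the letters A and B and -0.53 among D to G. Which of the transcripts each probe detects was not tested. The brightest probe no longer passed the test with siControl arrays 2 and 4 alone (-0.40, adjusted p = 0.0766).

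CDKN2B, the neighbour of CDKN2A that encodes p15, was dim. Its signal was 4.76, 4.56, 5.44 and 5.79 on siGATA2 arrays 1 to 4 and 4.13, 4.45, 5.91 and 4.38 on siControl arrays 1 to 4. The groups overlapped through siControl array 3, the array with the widest spread of negative controls, on which the 2 spots of the probe differed with an SD of 2.28 on the log2 scale. The probe was above background on all 4 siGATA2 arrays and on 2 of 4 siControl arrays. Its group means differed by 0.42 (adjusted p = 0.516, standard error 0.440), with a 95% interval from -0.60 to 1.44 that holds falls as well as rises. The difference was 0.53 among the letters A and B and 0.70 among D to G. It was 0.20 without siGATA2 array 4, 0.22 without siControl array 1 and 0.82 without siControl array 3 (adjusted p = 0.109), and it passed the test in none of these fits.

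CDKN2C, which encodes p18, was 10.15, 10.10, 10.53 and 10.43 on siGATA2 arrays 1 to 4 and 10.96, 11.08, 11.29 and 11.18 on siControl arrays 1 to 4. The groups did not overlap. The groups differed by -0.83 (95% interval -1.15 to -0.50, standard error 0.140, adjusted p = 0.00342), a fall of 1.77-fold. The difference was -0.84 among the letters A and B and -0.70 among D to G.

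CDKN2D, which encodes p19, was 13.02, 13.04, 13.41 and 13.53 on siGATA2 arrays 1 to 4 and 13.10, 12.93, 12.91 and 12.90 on siControl arrays 1 to 4. As for CDKN1B, siGATA2 arrays 3 and 4 were above all siControl arrays, and siGATA2 arrays 1 and 2 were below siControl array 1. The groups differed by 0.29 (95% interval -0.046 to 0.63, standard error 0.146, adjusted p = 0.184). The difference was -0.065 among the letters A and B and 0.56 among D to G, where the test on those 5 arrays alone gave an adjusted p of 0.0035.

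The antisense and divergent RNAs of the CDKN2A and CDKN2B locus were dim and did not pass the test after quantile normalization. CDKN2B-AS1, also called ANRIL, a noncoding RNA reported to repress the locus, differed by 0.30 on its brightest probe (adjusted p = 0.242, standard error 0.171), with 5.34 to 5.99 on the siGATA2 arrays and 5.18 to 5.66 on the siControl arrays. A dimmer CDKN2B-AS1 probe gave 0.60 (adjusted p = 0.115). CDKN2A-AS1 differed by 0.25 (adjusted p = 0.266, standard error 0.149), but passed when scaled to the 75th percentile (0.48, adjusted p = 0.0384). MIR31HG and another CDKN2B-AS1 probe were under the limit of 3 on the log2 scale and were not tested. The other 3 of the 7 listed noncoding RNAs had no probe under their name.

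CDKN3 had the largest fall of the inhibitors. Its signal was 11.67, 11.42, 11.55 and 11.62 on siGATA2 arrays 1 to 4 and 12.73, 13.32, 13.34 and 13.33 on siControl arrays 1 to 4. The siGATA2 arrays were all lower, and siControl array 1 lay between them and the other siControl arrays. Group means were 11.57 ± 0.107 (SD, n = 4) against 13.18 ± 0.301 (SD, n = 4). The difference on the log2 scale was -1.61 (standard error 0.163, 95% interval -1.99 to -1.24, adjusted p = 2.59e-04), a fall of 3.06-fold, and the other probe gave -1.83 (standard error 0.204, adjusted p = 4.26e-04). The fall was -1.18 among the letters A and B and -1.74 among D to G.

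The inhibitors were then compared with each other. The difference of log2 signal between the probes of 2 genes was taken on each array after quantile normalization. It was compared between the groups by an exact two-sided permutation test. A scaling of the whole array does not change such a difference, but quantile normalization is not such a scaling and can change it. Of the 28 pairs, 18 did not overlap between the groups and had an exact permutation p of 0.0286, the smallest value that 4 against 4 arrays allow, and an adjusted p of 0.0444 over the pairs. CDKN1C was among them with each of the other 7 genes. The pairs share genes and are not independent results, and the adjusted p depends on how many pairs reach that smallest value. The fold change of CDKN1C exceeded that of CDKN2B by 1.41 (standard error 0.437), that of CDKN1B by 1.53 (standard error 0.166) and that of CDKN3 by 3.45 (standard error 0.144) on the log2 scale. Scaled to the 75th percentile instead, CDKN1C had 1.77 and CDKN2B 0.79, against 1.83 and 0.42 after quantile normalization.

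In the order of their fold changes, CDKN1C was followed by CDKN2B, CDKN1B, CDKN2D, CDKN1A, CDKN2A, CDKN2C and CDKN3. The neighbours CDKN2B and CDKN1B (exact permutation p = 0.771), CDKN1B and CDKN2D (exact permutation p = 0.857), and CDKN2D and CDKN1A (exact permutation p = 0.629) did not differ beyond their spread. The same held for CDKN1A and CDKN2A (0.63, standard error 0.445, exact permutation p = 0.257) and for CDKN2A and CDKN2C (0.35, standard error 0.185, exact permutation p = 0.143). CDKN3 fell further than CDKN2C, by 0.79 (standard error 0.146, exact permutation p = 0.0286, adjusted p = 0.0444). The fold changes of CDKN1B and CDKN2D were 0.0075 apart (standard error 0.0729), the smallest difference of the 28 after quantile normalization. When scaled to the 75th percentile, CDKN1B had 0.28 and CDKN2D 0.23. A p above the threshold does not show that the genes of a pair are equal.

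The genes that are expressed in S and G2/M phase give the frame for these values. Of 42 S-phase genes tested 41 fell and none rose, and of 53 G2/M-phase genes tested 50 fell and none rose, with median log2 fold changes of -1.87 and -1.88. UHRF1, which maintains DNA methylation through replication, had -3.00 (standard error 0.129), and BIRC5, which encodes the mitotic protein survivin, had -2.40. The mean log2 signal of the G2/M-phase genes was 10.43 to 10.66 on the siGATA2 arrays and 11.94 to 12.23 on the siControl arrays, with the lowest siControl value on array 1. In cells measured in bulk, fewer cycling cells and less RNA in each of them cannot be told apart.

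CDKN3 fell with the genes of S and G2/M phase. Of those 53 genes, 38 fell further than CDKN3 and of the 42 S-phase genes 22 did so. The CDKN3 signal minus the mean of the G2/M-phase genes was 1.01, 0.99, 1.07 and 1.08 on siGATA2 arrays 1 to 4 and 0.78 to 1.12 on the siControl arrays, with the lowest value on array 1. The groups overlapped, with means of 1.04 ± 0.0435 (SD, n = 4) and 1.02 ± 0.160 (SD, n = 4), so that on the scale of these genes CDKN3 differed by 0.015. Against the mean of the S-phase genes CDKN3 differed by 0.14, with groups that overlapped too.

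CDKN2C fell less than most of these genes, and 35 of the 42 S-phase genes fell further. The CDKN2C signal minus the mean of the S-phase genes was 0.18, 0.30, 0.70 and 0.56 on siGATA2 arrays 1 to 4 and -0.36, -0.64, -0.45 and -0.50 on siControl arrays 1 to 4, a difference of 0.92. CDKN2A fell less still, and 40 of the 42 S-phase genes had a lower fold change. For CDKN1C the signal minus the mean of the G2/M-phase genes was 3.27 to 3.56 on the siGATA2 arrays and -0.18 to 0.11 on the siControl arrays, a difference of 3.46. Part of each such difference is the fall of the mean itself. On the same G2/M scale, CDKN1A, CDKN1B, CDKN2B and CDKN2D, which did not pass the test, differed by 1.78, 1.93, 2.05 and 1.92. Of the 8 inhibitors, CDKN1C alone was called higher on the arrays on which the cycling genes were low, although CDKN1A, CDKN1B and CDKN2D were called higher too among the title letters D to G.

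**Figure D3:**
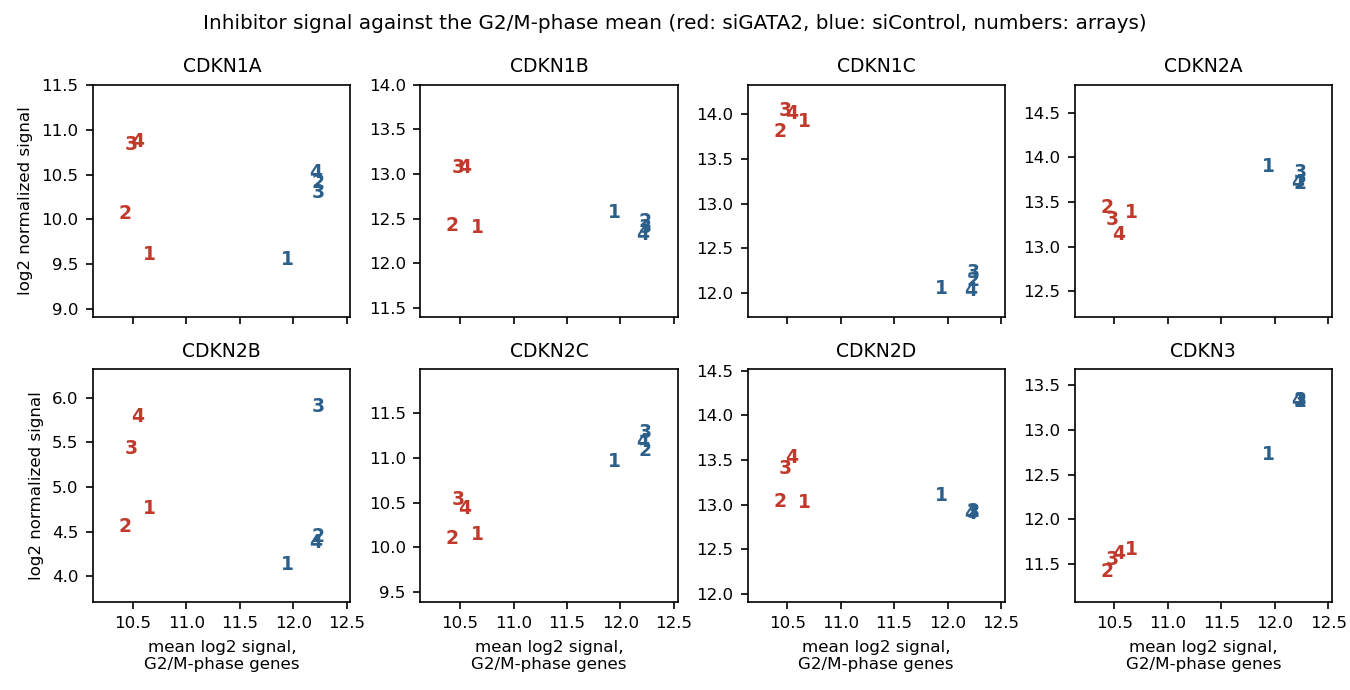
Log2 normalized signal of each inhibitor (brightest probe, vertical axis) against the mean log2 signal of the 53 G2/M-phase genes on the same array (horizontal axis), with siGATA2 arrays in red, siControl arrays in blue and array numbers as symbols. The arrays form 2 clusters, 10.43 to 10.66 and 11.94 to 12.23 on the horizontal axis, so no correlation is given, and siControl array 1 is the lowest of its cluster on that axis and for CDKN3.

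Promoter sequences are shown for CDKN3 and CDKN2C, the inhibitors that fell most with the cycling genes, since promoters of such genes often carry E2F sites, CCAAT boxes or the CHR element. They are RefSeq windows of the 250 bases before an annotated start in build GRCh38.p14, which held 7 of the 8 genes, all but CDKN1C, in 10 windows. Both strands were searched for the E2F-like letters GCGGGAA, the CHR letters TTTGAA, the CCAAT box, the GATA letters AGATAA or, as a further form, TGATAA, and the E-box letters CACGTG. No matches overlapped in the windows printed. Capitals mark the matches, read on the strand of the gene, so the CHR match reads TTCAAA here, the CCAAT box nearer the start reads ATTGG and the E2F-like match nearer the start reads TTCCCGC, each lying on the other strand.
CDKN3, chr14:54396757-54397006, plus strand: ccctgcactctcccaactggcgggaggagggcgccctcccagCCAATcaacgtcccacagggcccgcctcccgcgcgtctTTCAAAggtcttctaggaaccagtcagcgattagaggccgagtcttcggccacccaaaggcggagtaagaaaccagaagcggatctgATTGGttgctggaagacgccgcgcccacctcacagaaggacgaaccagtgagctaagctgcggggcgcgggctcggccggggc
CDKN2C, chr1:50968456-50968705, plus strand: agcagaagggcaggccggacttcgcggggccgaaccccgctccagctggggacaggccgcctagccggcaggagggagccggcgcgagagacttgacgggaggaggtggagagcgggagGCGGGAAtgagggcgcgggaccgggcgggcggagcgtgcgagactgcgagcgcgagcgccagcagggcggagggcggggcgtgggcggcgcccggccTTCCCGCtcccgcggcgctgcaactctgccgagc
The CDKN3 window held a CHR match 170 bases and CCAAT matches 208 and 83 bases before the start. The CDKN2C window held E2F-like matches 131 and 34 bases before the start, and the other 2 CDKN2C windows held E-box matches and a CCAAT box instead. Among all 35116 promoter windows of this length, 5.52% held the E2F-like letters, 13.3% those of the CHR, 6.34% the E-box and 32% a CCAAT box. The window of CDKN1B held 2 CCAAT boxes and that of CDKN2D held 1, while those of CDKN1A, CDKN2A and CDKN2B held none of the letters searched. The GATA letters, found in 9.17% (AGATAA) and 6.66% (the form starting with T) of all windows, were in no window of these 7 genes. A match is a description of the sequence and not a site shown to be bound.

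Genes for the kinases that the inhibitors act on, and for proteins that regulate those kinases or lie downstream, were next examined by their transcripts. The lists of G1 and mitotic targets thus also hold genes such as E2F1, RBL1 and PKMYT1, which do not encode kinases bound by the inhibitors. Of 11 G1 targets tested 6 fell and none rose (median -0.70), among them E2F1 (-2.23, standard error 0.133), the transcription factor released by the retinoblastoma protein, and CDK2 (-1.72, standard error 0.256), the kinase bound by p21, p27 and p57. RBL1, which encodes the pocket protein p107, had -1.58 (standard error 0.128). CDK4, the kinase bound by all INK4 proteins and named here after its value was seen, had -1.19 (adjusted p = 0.00108). RB1 (-0.026, adjusted p = 0.894) and CCND1, which encodes cyclin D1 (-0.086, adjusted p = 0.668), did not pass the test. Of 12 mitotic targets 9 fell and none rose (median -1.34), led by CCNA2, which encodes cyclin A2 (-2.36, standard error 0.179), the inhibitory kinase PKMYT1 (-2.04, standard error 0.175) and CCNB2, which encodes cyclin B2 (-1.90, standard error 0.129). Some of the listed targets are also on the S-phase or G2/M-phase list, so the counts partly repeat those given above.

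Genes for the turnover of p21, p27 and p57 moved in both directions. Of 14 tested 5 fell and 2 rose, with a median of 0.028. Over all probes 14.5% were called lower and 12.5% higher, shares that also stand beside the counts of the lists below. The 2 rises are not read as a result about the list. DTL, the substrate receptor of the CUL4 ligase that removes p21 in S phase, was 8.37 to 8.63 on the siGATA2 arrays and 11.01 to 11.35 on the siControl arrays, which is a log2 fold change of -2.80 (standard error 0.122). PCNA, the clamp on which that ligase meets p21, had -1.88 (standard error 0.131). SKP2, which brings p27 and p57 to the SCF ligase, was 7.11 to 7.49 on the siGATA2 arrays and 8.61 to 9.28 on the siControl arrays, which is a log2 fold change of -1.66 (standard error 0.166). DTL and PCNA are also on the S-phase list. The genes that rose were RNF123, a ligase for p27 in G1 (0.97, standard error 0.137), and SKP1, the SCF adaptor (0.60, standard error 0.141), which did not pass when scaled to the 75th percentile (0.40, adjusted p = 0.186) and turned sign when scaled to spike-in probes (-0.21). The groups of all of these genes did not overlap. Transcripts do not give the level of the inhibitor proteins, which these ligases set.

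Among 24 genes for factors that control inhibitor transcription 7 fell and 4 rose, with a median of -0.16. Of all probes 14.5% were called lower and 12.5% higher, and the counts of 7 and 4 are not read as a result about the list. MYC, a repressor of CDKN1A and CDKN2B, was 11.98 to 12.30 on the siGATA2 arrays and 14.83 to 14.98 on the siControl arrays, which is a log2 fold change of -2.75 (standard error 0.113). VDR, the vitamin D receptor, had -1.62 (standard error 0.0932), and TFAP4, a MYC-induced repressor of CDKN1A, had -1.33 (standard error 0.188). FOXO1, an activator of CDKN1B, was 9.63 to 10.20 on the siGATA2 arrays and 8.47 to 8.78 on the siControl arrays, which is a log2 fold change of 1.26 (standard error 0.168). CBX7, a Polycomb protein that represses the CDKN2A locus, had 1.22 (standard error 0.203), and KLF6, an activator of CDKN1A, had 1.15 (standard error 0.223). All 6 passed the test, and their groups did not overlap.

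CDKN1A is one of many genes induced by p53, and most genes on a list of other p53 targets fell. Of 28 tested 19 fell and none rose, with a median of -1.06. BTG2, an antiproliferative gene, had -3.49 (standard error 0.249), the oxidoreductase TP53I3 -3.06 (standard error 0.190) and the death receptor FAS -3.03 (standard error 0.207). CDKN1A itself, at 0.15, was not on the list of 28. Of 9 FOXO targets 3 fell and 2 rose (median 0.22), with -1.56 for CITED2, -1.28 for TXNIP and -0.86 for SESN3 against 1.72 for the mitochondrial kinase PINK1 and 0.86 for the insulin receptor INSR. Of 13 genes of the TGF-beta pathway, which induces CDKN2B and CDKN1C in several cell types, 1 fell and 4 rose. PMEPA1, a feedback inhibitor of the pathway, had -2.31 (standard error 0.123), whereas SMAD3, a signal transducer, had 1.16 (standard error 0.188) and SMAD7, an inhibitor, 0.98 (standard error 0.189). The ligand TGFB3 was not well above background on any siControl array and was at least 1.42-fold higher on the siGATA2 arrays. The median of these 13 genes was 0.63 as measured and 0.51 with TGFB3 at that bound.

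**Figure D4:**
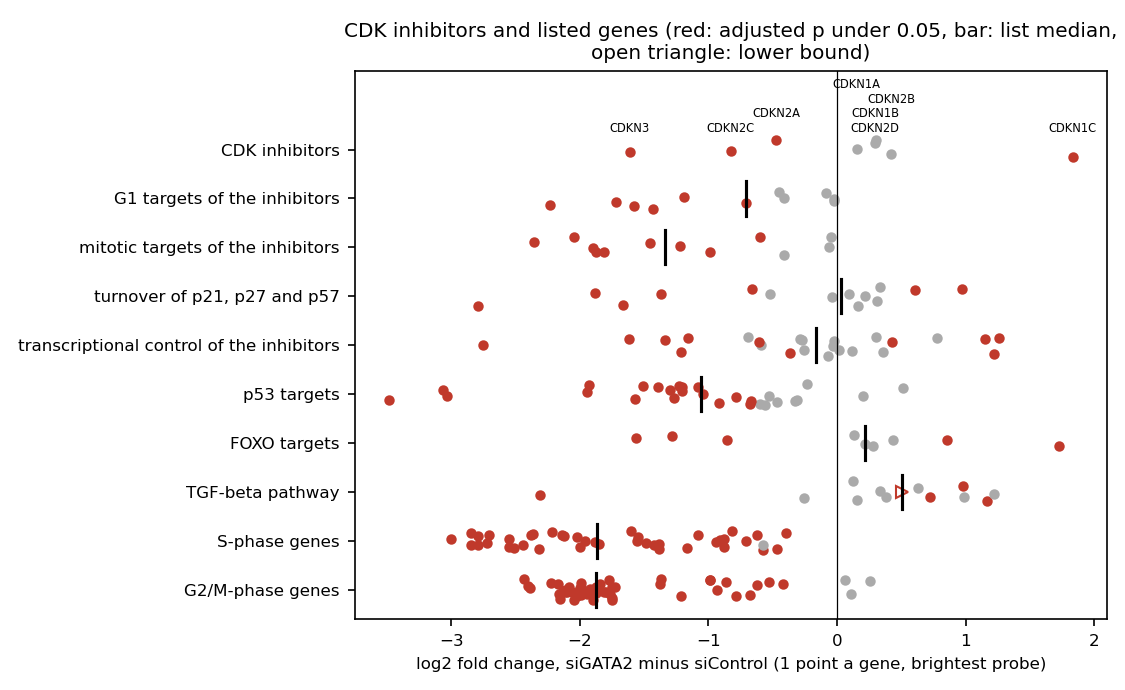
Log2 fold change (siGATA2 minus siControl) of the 8 CDK inhibitors and of the genes of 9 lists, 1 point a gene by its brightest probe, with red for an adjusted p under 0.05, a bar at the list median and an open triangle for TGFB3, drawn at its lower bound. CDKN3 lies among the S-phase and G2/M-phase genes, CDKN2C and CDKN2A lie at their upper end, and CDKN1C lies above every S-phase and G2/M-phase gene.

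For the inhibitors that passed the test, the genes with the most similar values over the 8 arrays were sought among 17074 probes above background on all arrays. The nearest to CDKN3 were DDIAS, CDC20 and IMPA2, and the nearest to CDKN1C were TMEM116, XXYLT1 and ZNF564, all with Pearson's r over 0.99. For CDKN2C they were BTF3, LOC729080 and DTD1 (r of 0.998, 0.995 and 0.994), and for CDKN2A they were MXD3, TBC1D24 and SNHG5 (r of 0.987, 0.986 and 0.986). The arrays fall into 2 clusters, which any gene that differs between the groups shares, so these values describe likeness over 8 arrays and no more.

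**Figure D5:**
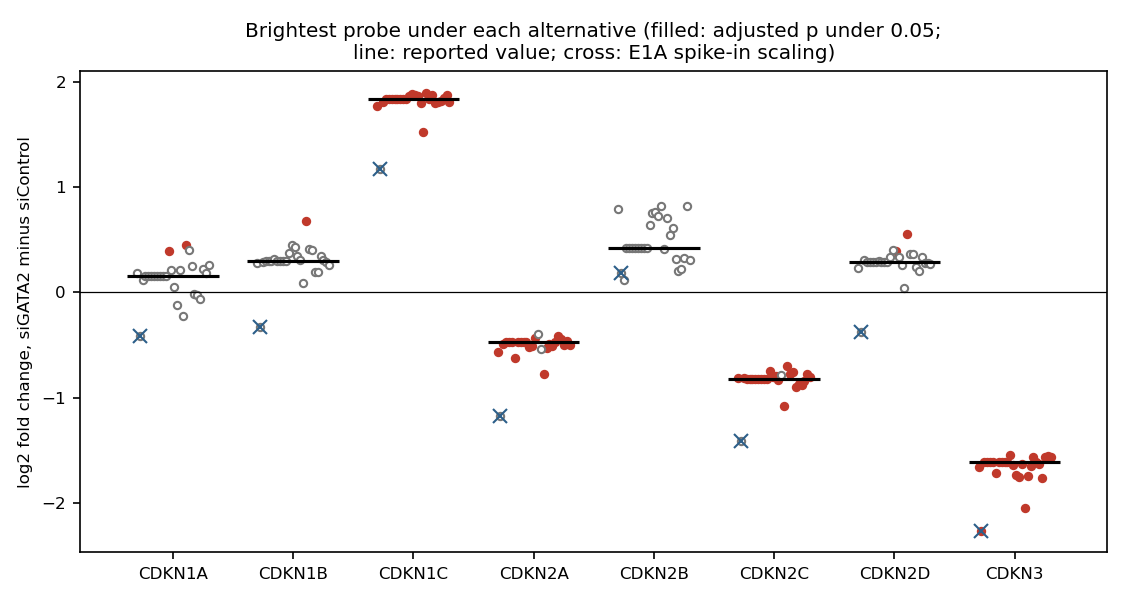
Log2 fold change of the brightest probe of each inhibitor under 26 alternatives of normalization, filter, test and samples (points, filled where the adjusted p was under 0.05), with the reported value as a line and scaling to the E1A spike-in probes as a cross. CDKN3 passed the test under all 26 and CDKN1C under 25, whereas CDKN1A, CDKN1B and CDKN2D lay on both sides of 0.

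Scaling to spike-in probes changed the calls. Scaled to the E1A spike-in probes, whose mean was lower on siControl array 1 (11.13) than elsewhere (13.45 to 13.83), the median of all probes moved to -0.43 and CDKN1C (1.17, adjusted p = 0.167), CDKN2A (-1.17, adjusted p = 0.174) and CDKN2C (-1.42, adjusted p = 0.0784) no longer passed the test, while CDKN1A (-0.42), CDKN1B (-0.32) and CDKN2D (-0.37) turned sign. Over all probes this scaling called 2404 lower and 166 higher, against 5155 and 4447 otherwise. None of the listed genes described above as risen passed under it, nor did TFAP4 and SESN3, whereas 33 S-phase and 43 G2/M-phase genes still fell. With siControl array 1 left out of the same scaling, an alternative chosen after seeing the data, CDKN1C had 1.52 (adjusted p = 0.00129), CDKN2A -0.77 (adjusted p = 0.0135) and CDKN2C -1.08 (adjusted p = 0.00334), and of the listed genes SKP1 (0.18) and KLF6 (0.78) still did not pass.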

How the data were processed

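RNA of LNCaP cells was measured on 8 arrays, grouped by their labels. Per the file headers, the authors deposited spot intensity from Agilent Feature Extraction 11.0.1.1, and also a matrix of log2 values. The array files name another array design than the methods do. The log2 of the processed signal was averaged over the spots of a probe that carried no outlier mark, then quantile-normalized with limma 3.58.1 in R 4.3.3, since quantile normalization is the one the methods name. Probes were named through a RefSeq table (GRCh38.p14, names only), which gave 26364 of them a symbol. The 1914 unannotated probes and those with a mean log2 under 3 were removed. Groups were compared per probe with the moderated test of limma (lmFit, eBayes), adjusted by Benjamini-Hochberg over 35514 probes. It replaces the t-test of the study and was tested on simulated data.

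The genes named are the 8 inhibitors, GATA2, the 3 genes of each list with the largest fall and rise among called genes measured well above background throughout at least 1 group, all noncoding RNAs at inhibitor loci with a probe, and the 3 genes most like each called inhibitor. CDK4, RB1 and CCND1 were added after their values were seen. Of the luminal markers listed, 1 is not reported here and was left out of the counts. The members and lists were chosen with earlier results of these data known. Where every array of a group was near background for a probe, a bound was computed against the lowest signal well above background on each of those arrays. Arrays have no read depth, and the 4 arrays a group limit the precision. Alternatives were other scalings, a normexp correction (offset 50), other filters, tests, blocks and array weights, leaving out arrays, the deposited log2 values and a threshold of 2-fold. Slide was not used as a block, as all arrays lay on 1 slide.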

Additional observations from a re-analysis of the deposited data

Results flagged for a closer look

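Among 110 groups of 4 arrays examined, 9 held an array whose gap to the nearest other array, as a share of the group's range, was above Dixon's 95% critical value, and chance marks about 1 in 20 such groups. In 8 of the 9 that array was siControl array 1. For CDKN3 the share was 0.974, with a signal of 12.73 there against 13.32 to 13.34 on the rest of the siControl group. For CDKN2D it was 0.858, with 13.10 against 12.90 to 12.93. Among the other genes named it was 0.843 for CDK2 (7.64 against 8.62 to 8.80), 0.877 for DTL (11.01 against 11.31 to 11.35), 0.884 for CBX7 (11.97 against 11.22 to 11.31), 0.862 for PINK1 (10.91 against 11.65 to 11.77) and 0.910 for KCNQ1OT1 (10.42 against 8.27 to 8.46). For the luminal marker KLK2 it was 0.832 (12.72 against 13.15 to 13.23). SKP1 stood apart on siControl array 2 instead (0.871, with 16.06 against 15.95 to 15.96). Without siControl array 1 the log2 fold changes of CDKN3, CDKN2D, CDK2, DTL, CBX7, PINK1 and KLK2 kept their sign and their side of the threshold, whereas KCNQ1OT1 then passed the test (1.61, adjusted p = 0.0349). SKP1 kept both without siControl array 2.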

How the results depend on the processing

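CDKN3 passed the test under all 26 alternatives (-2.26 to -1.54), CDKN1C under 25, CDKN2C under 24 and CDKN2A under 23. CDKN2B kept its sign and passed under none (0.12 to 0.82). Scaled to the E1A spike-in probes, CDKN1C had 1.17, CDKN2A -1.17 and CDKN2C -1.42 and did not pass, while CDKN1A (-0.42), CDKN1B (-0.32), CDKN2D (-0.37), SKP1 (-0.21), CDKN2B-AS1 (-1e-04), CDKN2A-AS1 (-0.13) and KRT8 (-0.096) turned sign, which left 1 inhibitor called lower and 0 called higher. With siControl array 1 left out of that scaling, CDKN1A was -0.22. The title letters as a block gave CDKN1A 0.39, and array weights gave CDKN2D 0.39, each past the threshold, so that 2 inhibitors were higher. The letters D to G alone, a choice made after seeing the data, gave CDKN1A 0.45, CDKN1B 0.68 and CDKN2D 0.56, with 4 inhibitors higher. With siControl arrays 2 and 4 only, CDKN1A was -0.12 and CDKN2A -0.40, neither past the threshold. Without normalization between arrays, also tried after seeing the data, CDKN2A (-0.54) and CDKN2C (-0.78) did not pass and 1 inhibitor was lower, as with a fold of at least 2 (1 lower). The cause of these changes was not tested. Leaving out 1 array at a time gave CDKN1A -0.065 to 0.40 and kept 3 inhibitors lower and 1 higher.

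The values did not show that the replicate numbers pair the arrays, and with so few arrays they cannot show that the arrays are unpaired. Same-numbered arrays correlated at 0.53, -0.31, 0.17 and 0.23 in their deviations from the group means. Only array 1 of each group correlated best with its own number. With the replicate block CDKN1C had 1.83, and the block changed no call of the 8 inhibitors and, among the other genes named, ended that of KRT8 (0.56, adjusted p = 0.0547).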

Other observations

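The luminal markers of the prostate, which were not compared above, moved with the groups. Of 11 tested 6 fell and 1 rose, with a median log2 fold change of -0.40. SLC45A3 (-2.87, standard error 0.278), the prostatic acid phosphatase ACP3 (-2.15, standard error 0.215) and the kallikrein gene KLK2 (-1.84, standard error 0.317) fell. The keratin KRT8 rose (0.56, standard error 0.152), but did not pass when scaled to the 75th percentile (0.51, adjusted p = 0.0976). Nor did KRT8 pass when each siControl array was left out in turn (adjusted p = 0.0523 to 0.0708). The same held without siGATA2 array 3 (adjusted p = 0.0646), without siGATA2 array 4 (adjusted p = 0.0727) and with the slide row as a block (adjusted p = 0.0790). Of the mesenchymal and blood markers 8 were tested and PTPRC alone was called (0.87, standard error 0.125; 0.37 and not called when scaled to spike-in probes), with 8.81 to 9.11 on the siGATA2 arrays and 7.98 to 8.35 on the siControl arrays. Among the cycling genes, E2F8 (-2.84), CDCA7 (-2.84), HJURP (-2.43) and CENPE (-2.39) had the largest falls beside UHRF1 and BIRC5.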
